A study of Mus musculus with 20 samples.

Results

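The colony-stimulating factors and their receptors were examined as 7 genes in microglia, the brain's own macrophages. These were the ligands Csf1 and Il34, their shared receptor Csf1r and the G-CSF receptor Csf3r. The others were the GM-CSF receptor subunits Csf2ra and Csf2rb and the IL-3 beta chain Csf2rb2. All 7 genes were taken by name from the 19751 genes on the array, each through the probe set annotated to that gene alone. Each had 1 such probe set. Of the 7 genes, 6 passed the filter on low values and were tested among 12728 genes. Il34 did not pass.

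Microglia had been sorted by flow cytometry from perfused brains of littermates aged 8.5 months and measured on one-colour arrays. The groups were 4 WT arrays, 4 arrays from mice without the lipid-sensing receptor Trem2 (Trem2-/-), 5 from 5XFAD mice and 6 from 5XFAD mice without Trem2 (Trem2-/-5XFAD). 5XFAD mice carry transgenes with familial Alzheimer mutations under the neuronal Thy1 promoter and form amyloid plaques. How the Trem2-/- allele was made, which antibodies set the sorting gate and whether animals were male or female is not stated in the labels. A further array, titled WT but labelled Trem2-/- in its genotype, was put in no group. The labels do not say how separate the samples were beyond being littermates, so the p-values measure the spread between arrays.

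CSF1 and IL-34 are the ligands of CSF1R, a receptor tyrosine kinase on which microglia depend for survival and proliferation. In the brain IL-34 is made mainly by neurons, while CSF1 comes from several glial cell types. GM-CSF signals through CSF2RA, its ligand-specific alpha chain, paired with the common beta chain encoded by Csf2rb, which IL-3 and IL-5 also use. Mice have a further beta chain, encoded by Csf2rb2, that serves IL-3. CSF3R is the receptor of G-CSF, best known from neutrophils.

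Trem2 itself lay between 11.14 and 11.80 on the log2 scale in the 9 WT and 5XFAD arrays and between 6.75 and 7.60 in the 10 arrays of the Trem2-/- groups. All levels below are log2(intensity + 1), with intensities as the authors deposited them. The 9 microglial markers on the array were above the 40th percentile of every assigned array, with list means from 10.53 to 11.35. Xist, a sign of female samples, was high in 3 of 4 WT, 3 of 4 Trem2-/-, 1 of 5 5XFAD and none of the 6 Trem2-/-5XFAD arrays, so that sex signal and genotype were partly confounded. Klk1b22, a salivary gland transcript, was at 7.91 to 9.51 in the first and second arrays of WT and of 5XFAD and at 2.68 to 3.799 in the other assigned arrays. The mean of 5 salivary genes was 6.10 to 6.91 in those 4 arrays, 4.99 in Trem2-/- 3, 3.92 in Trem2-/- 2, 3.84 in WT 4 and 2.70 to 3.37 in the rest. Since sorted cells were measured in bulk, fewer cells with a transcript and less of it per cell cannot be told apart.

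The 300 bases around the start sites of Csf1 and Csf2ra are shown because these genes rose in 5XFAD microglia. The windows run from 250 bases before to 50 after the start, 5′ to 3′ on the minus strand, from RefSeq (GRCm38.p6), at chr3:107760420-107760719 for Csf1 and chr19:61228369-61228668 for Csf2ra. Capitals mark matches to 7 motifs searched on both strands: GAGGAA (the core of ETS factors such as PU.1), TGANTCA (AP-1), GGGAA and CC parted by any 3 bases (NF-kappaB), CACGTG (E-box of the MiT/TFE factors), TTCNNNGAA (STAT), GAAA repeated after any 2 bases (IRF) and TGACGTCA (CRE).
Csf1: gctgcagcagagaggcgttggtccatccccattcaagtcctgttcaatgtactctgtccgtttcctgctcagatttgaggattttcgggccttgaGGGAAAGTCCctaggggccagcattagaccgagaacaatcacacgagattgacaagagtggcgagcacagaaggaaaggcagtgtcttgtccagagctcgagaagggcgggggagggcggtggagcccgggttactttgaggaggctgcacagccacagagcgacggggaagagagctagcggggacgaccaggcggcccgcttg
Csf2ra: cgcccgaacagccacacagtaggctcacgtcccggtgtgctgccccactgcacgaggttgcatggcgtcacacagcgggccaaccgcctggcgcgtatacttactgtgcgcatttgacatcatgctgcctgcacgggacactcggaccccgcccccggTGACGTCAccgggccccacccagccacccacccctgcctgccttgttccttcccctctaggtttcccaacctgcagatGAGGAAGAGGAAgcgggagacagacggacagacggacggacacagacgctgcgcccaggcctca
The Csf1 window held the NF-kappaB match GGGAAAGTCC at base -155, a motif found in 5.78% of the 32851 promoter windows of the table. The Csf2ra window held a pair of adjacent GAGGAA matches at bases -14 and -8 and a CRE match at base -92. GAGGAA was present in 28.3% of all windows and the CRE motif in 1.79%. The STAT motif, in 8.3% of windows, matched in Csf2rb2 at base -15, beside GAGGAA matches at bases -167 and 30, and the Csf3r window had GAGGAA at base -86. AP-1 (7.81% of windows), E-box (7.15%) and IRF (3.44%) motifs had no match in the 4 members' windows examined. A match describes letters in the window and does not show that a factor binds there.

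**Figure D1:**
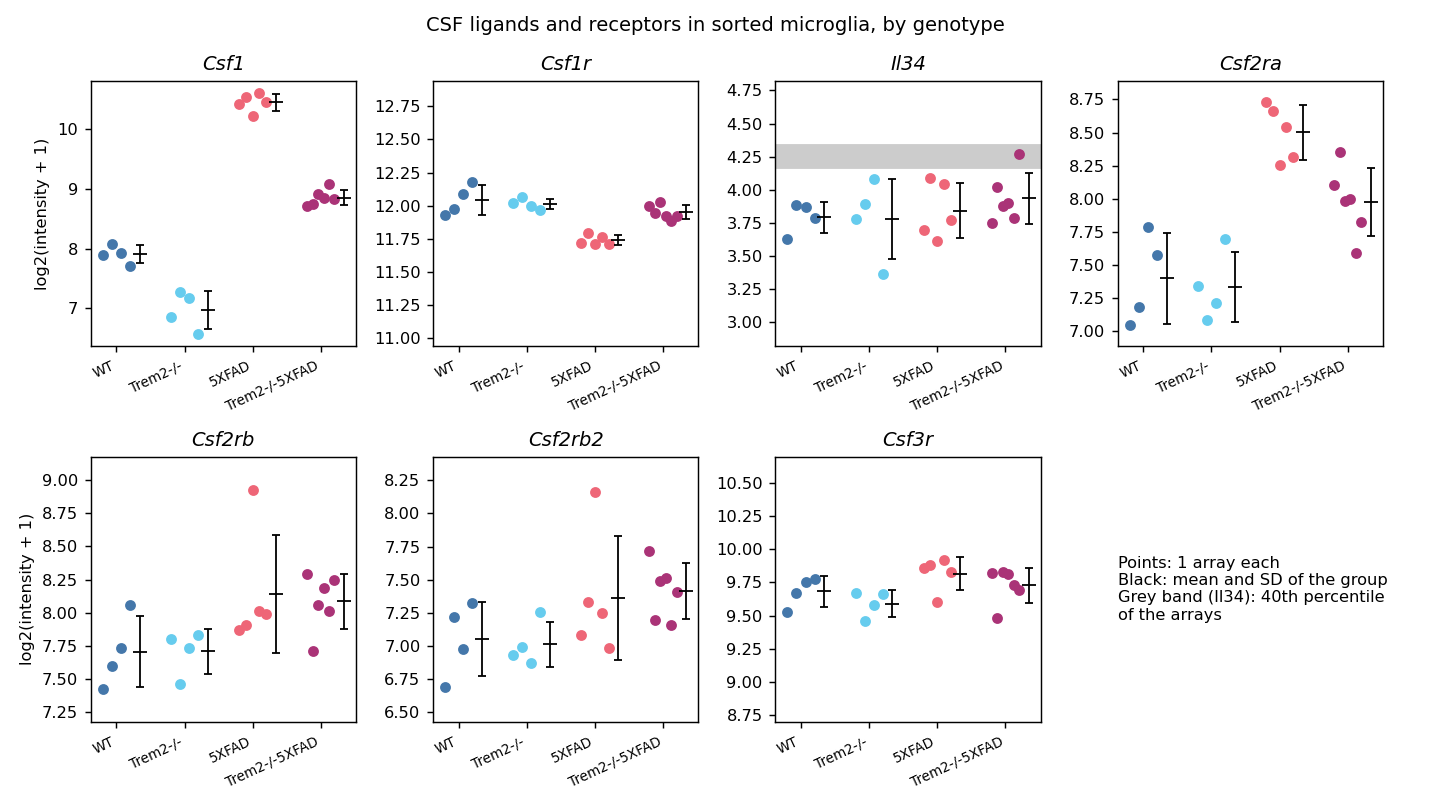
Levels of the 7 genes by genotype on the y axis, as log2(intensity + 1), with 1 coloured point per array and the group mean and SD in black; the panels have separate y axes. Csf1 separates all 4 groups and Csf1r is lowest in 5XFAD. Csf2ra is highest in 5XFAD, while Trem2-/-5XFAD has an intermediate mean and overlaps all other groups. Il34 lies at or under the grey band of the arrays' 40th percentiles.

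Csf1, the ligand, had the widest range of the axis. Its level was 7.90, 8.09, 7.94 and 7.72 in WT 1 to 4 and 6.85, 7.28, 7.18 and 6.57 in Trem2-/- 1 to 4. In 5XFAD 1 to 5 it was 10.43, 10.54, 10.23, 10.61 and 10.46, and the 6 Trem2-/-5XFAD arrays ran from 8.72 through a median of 8.84 to 9.08. No group overlapped another, and the order was Trem2-/-, WT, Trem2-/-5XFAD, 5XFAD. Group means were 6.97 ± 0.32 (SD, n = 4), 7.91 ± 0.15 (SD, n = 4), 8.86 ± 0.13 (SD, n = 6) and 10.45 ± 0.14 (SD, n = 5) in that order.

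Each neighbouring pair in this order differed by limma's moderated test, adjusted over the 12728 genes. Csf1 rose in 5XFAD over WT by 2.54 ± 0.13 on the log2 scale (SE), or 5.82 times (limma, adjusted p = 1.6e-11). It also rose with 5XFAD in mice without Trem2, by 1.89 ± 0.13 or 3.7 times (adjusted p = 1.4e-08). In amyloid-bearing mice it was 3.02 times lower without Trem2, a difference of -1.59 ± 0.12 (adjusted p = 1.1e-08). Trem2-/-5XFAD still exceeded WT by 0.95 ± 0.13 or 1.93 times (adjusted p = 7.3e-05).

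Without amyloid, Csf1 was also lower in Trem2-/- than in WT, by 1.92 times (-0.94 ± 0.14, limma, adjusted p = 0.0018). This call was lost in a model of these groups alone (-0.94, adjusted p = 0.11) and with the conflicting array counted as Trem2-/- (-0.76, adjusted p = 0.054). That array had a Trem2 level of 11.08, far above the 6.84 to 7.02 of the Trem2-/- arrays, and the call held with it counted as WT (-0.93, adjusted p = 5.6e-04). The rise with 5XFAD was 0.65 ± 0.18 smaller on the log2 scale without Trem2 than with it, with a 95% interval of the interaction from -1.03 to -0.27. This interaction did not pass (limma, adjusted p = 0.061). Over the alternative settings its adjusted p ran from 0.013 to 0.16.

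Astrocytes also make CSF1, and their marker list moved with genotype. Its mean ran from 5.11 to 5.36 in WT, 4.94 to 5.16 in Trem2-/-, 5.64 to 6.11 in 5XFAD and 5.14 to 5.50 in Trem2-/-5XFAD. Between 4 and 6 of its 8 genes were above the 40th percentile in each array, while the defining markers Aqp4 and Aldh1l1 did not pass the filter. Of 6 tested members, 2 were called higher and 1 lower in 5XFAD than in WT, where 15% of all tested genes were called. The list median difference was 0.64, beside -0.02 over all tested genes. Gfap, an astrocyte filament gene, averaged 4.22 in WT and 6.38 in 5XFAD. In the same groups S100b averaged 5.64 and 7.14, Aldoc 6.55 and 7.19, Slc1a2 5.74 and 6.38 and Gja1 4.39 and 4.44. Only Slc1a3, a glutamate transporter gene, had a lower mean in 5XFAD, at 7.16 against 7.89. With the astrocyte list mean as a covariate, the Csf1 difference between 5XFAD and WT was 2.52 ± 0.24 (limma, adjusted p = 2.3e-06). The list mean did not overlap between WT and 5XFAD, so astrocyte signal and genotype cannot be told apart in this model. The part of astrocyte RNA in the Csf1 level was not tested.

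Csf1 differed by nearly the same amount inside the arrays high and low in Klk1b22. The difference between 5XFAD and WT was 2.49 in the 2 and 2 arrays high in it and 2.61 in the 3 and 2 arrays low in it, of which WT 4 held some salivary signal. Among arrays low in Xist, the single WT array had 8.09 and the 4 5XFAD arrays 10.23 to 10.61. The 6 Trem2-/-5XFAD arrays, all low in Xist, therefore lay below every 5XFAD array of the same Xist class. With Xist signal as a factor in the model none of the Csf1 calls above was lost. These splits rest on few arrays, and no Trem2-/-5XFAD array was high in Xist. Sex signal and genotype can therefore not be fully told apart, and the part of salivary signal in the Csf1 level was not tested.

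Il34, the other ligand, stayed at background level. It lay between 3.37 and 4.27 in the assigned arrays, under the 40th percentile in all 19 of them. Group means were 3.79 ± 0.12 in WT (SD, n = 4), 3.78 ± 0.30 in Trem2-/- (SD, n = 4), 3.84 ± 0.21 in 5XFAD (SD, n = 5) and 3.94 ± 0.19 in Trem2-/-5XFAD (SD, n = 6). All 4 groups overlapped at this level, and no fold is given. Csf2 and Csf3, the ligands of the GM-CSF and G-CSF receptors, did not pass the filter either.

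Csf1r, the receptor of CSF1 and IL-34, was lowest in 5XFAD and had a narrow range. Its level was 11.93, 11.97, 12.09 and 12.18 in WT 1 to 4 and 11.72, 11.80, 11.71, 11.76 and 11.71 in 5XFAD 1 to 5. These groups did not overlap, and every 5XFAD array lay below every array of the other assigned groups. Trem2-/- 1 to 4 had 12.02, 12.06, 11.998 and 11.97, and the Trem2-/-5XFAD arrays ran from 11.89 through a median of 11.93 to 12.03.

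Csf1r fell in 5XFAD against WT by 0.30 ± 0.08 on the log2 scale (limma, adjusted p = 0.012), 1.23 times. It did not pass in Trem2-/-5XFAD against 5XFAD (0.21 ± 0.07, adjusted p = 0.090, 95% interval 0.06 to 0.36), although these groups did not overlap. That difference did pass after a second quantile normalization (0.36, adjusted p = 0.0021), with a pseudocount of 16 (0.21, adjusted p = 0.028) and with a trended, robust variance prior (adjusted p = 0.0044). The order of the group means was 5XFAD, Trem2-/-5XFAD, Trem2-/-, WT, at 11.74 ± 0.04 (SD, n = 5), 11.95 ± 0.05 (SD, n = 6), 12.01 ± 0.04 (SD, n = 4) and 12.04 ± 0.11 (SD, n = 4). The upper 3 groups of this order were not separated by the test: Trem2-/- differed from WT by -0.03 (95% interval -0.21 to 0.15) and Trem2-/-5XFAD from Trem2-/- by -0.06 (-0.22 to 0.10).

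Inside the arrays high in Klk1b22 the difference between 5XFAD and WT in Csf1r was -0.20, and in the arrays low in it -0.40. The fall of Csf1r in 5XFAD missed the threshold in a model of WT and 5XFAD alone (-0.30, adjusted p = 0.084) and with Xist signal as a factor (-0.28, adjusted p = 0.051), at nearly the same size. It also missed it with astrocyte (adjusted p = 0.11) or border macrophage markers (adjusted p = 0.067) as a covariate, at values of -0.43 and -0.32. Border macrophages, of the meninges and vessels, express Csf1r as well. The mean of their 8 markers ran from 6.34 to 7.15 in WT, 6.64 to 7.83 in Trem2-/-, 5.40 to 6.16 in 5XFAD and 6.53 to 7.22 in Trem2-/-5XFAD, with 6 to 8 of 8 above the 40th percentile in each array. The microglial marker list was lowest in the same arrays, at 10.53 to 10.76 in 5XFAD against 11.10 to 11.35 in WT. Of its 9 tested genes 7 were called lower in 5XFAD than in WT, where 15% of all tested genes were called.

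Csf2ra, the GM-CSF-specific alpha chain, rose with amyloid. It read 7.05, 7.18, 7.79 and 7.58 in WT 1 to 4 and 8.73, 8.66, 8.26, 8.54 and 8.32 in 5XFAD 1 to 5. The lowest 5XFAD array lay above the highest WT array. Trem2-/- 1 to 4 had 7.34, 7.09, 7.21 and 7.70, while Trem2-/-5XFAD ran from 7.59 through a median of 7.99 to 8.35 and overlapped all other groups.

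Csf2ra was 2.15 times higher in 5XFAD than in WT, a difference of 1.10 ± 0.17 (limma, adjusted p = 8.5e-05). The size depended on the arrays: it was 1.58 in the arrays high in Klk1b22 and 0.69 in those low in it (adjusted p = 0.036 in a model that left the former out). With the astrocyte covariate it was 0.75 ± 0.30 and missed the threshold (adjusted p = 0.20). The means were ordered Trem2-/- (7.34 ± 0.26, SD, n = 4), WT (7.40 ± 0.34, SD, n = 4), Trem2-/-5XFAD (7.97 ± 0.26, SD, n = 6) and 5XFAD (8.50 ± 0.21, SD, n = 5).

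Trem2-/-5XFAD lay between 5XFAD and the groups without amyloid, at adjusted p-values close to the threshold. Csf2ra was 0.53 ± 0.15 lower there than in 5XFAD (limma, adjusted p = 0.037), 0.64 ± 0.16 higher than in Trem2-/- (adjusted p = 0.042) and 0.58 ± 0.16 higher than in WT (adjusted p = 0.043). Leaving out any of 5XFAD 1, 2 or 4 or Trem2-/-5XFAD 3, 4, 5 or 6 ended the first of these calls, with differences of -0.53 to -0.45. Leaving out any of Trem2-/- 1, 2 or 3, 5XFAD 4 or 5 or Trem2-/-5XFAD 1, 2, 3, 4 or 6 ended the second, at 0.56 to 0.67. The third was lost without any of WT 1 or 2, Trem2-/- 1, 5XFAD 4 or Trem2-/-5XFAD 1, 2, 3, 4 or 6, at 0.46 to 0.61, and the difference was 0.29 without the 4 arrays high in Klk1b22. Trem2-/- and WT, the lower pair, were not separated (-0.06, 95% interval -0.44 to 0.31), and the interaction was -0.46 ± 0.24 (limma, adjusted p = 0.39). With astrocyte markers as a covariate the difference between Trem2-/-5XFAD and 5XFAD was -0.26 (adjusted p = 0.84), and with border macrophage markers -0.14 (adjusted p = 0.80). This call was also lost after a second quantile normalization (-0.48, adjusted p = 0.059), with the replicate block (-0.50, adjusted p = 0.090), with neutrophil markers (-0.49, adjusted p = 0.12), with Xist signal (-0.52, adjusted p = 0.058) and without the 4 arrays high in Klk1b22 (-0.40, adjusted p = 0.21). Of 35 alternatives, 14 ended it, 15 ended the call against Trem2-/- and 16 the call against WT.

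**Figure D2:**
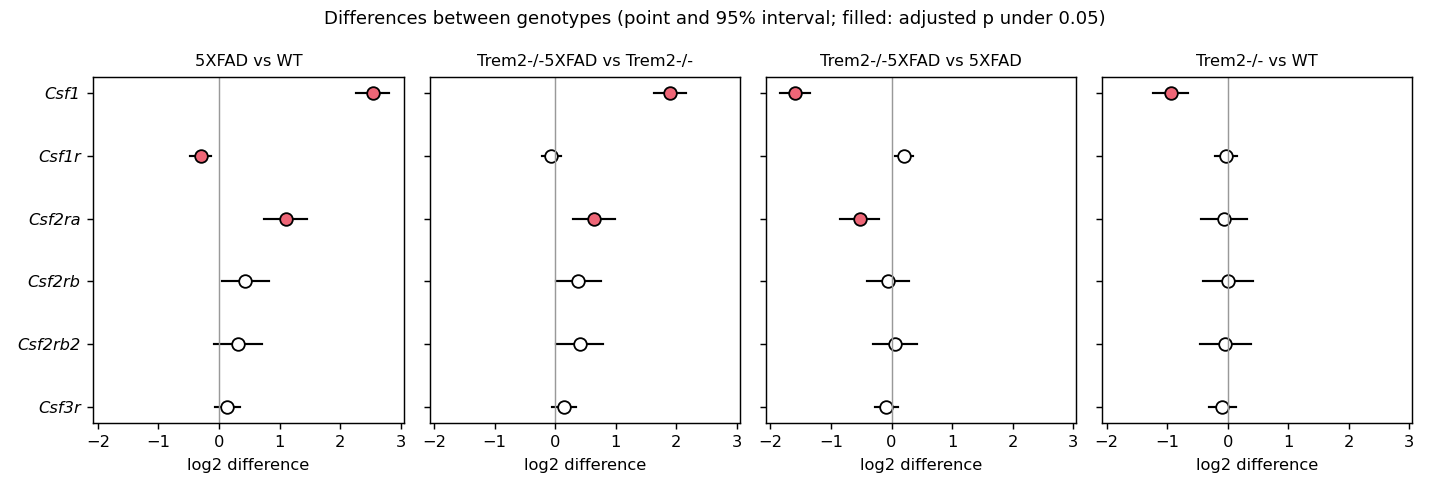
Log2 differences (x axis) of the 6 tested genes (y axis) in 4 comparisons; points are limma estimates, bars 95% intervals, and filled points have an adjusted p under 0.05. Csf1 is the only gene filled in all 4 panels, from -1.59 to 2.54, and Csf2ra is filled in 3 of them.

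Csf2rb, the beta chain common to the GM-CSF, IL-3 and IL-5 receptors, had 7.43, 7.60, 7.74 and 8.06 in WT 1 to 4 and 7.87, 7.91, 8.93, 8.01 and 7.99 in 5XFAD 1 to 5. The array 5XFAD 3 stood well above the other 5XFAD arrays. The difference in Csf2rb between 5XFAD and WT was 0.44 ± 0.18 (limma, adjusted p = 0.13), with a 95% interval of 0.05 to 0.82, and was 0.24 without 5XFAD 3. Group means were 7.71 ± 0.27 in WT (SD, n = 4), 7.71 ± 0.17 in Trem2-/- (SD, n = 4), 8.09 ± 0.21 in Trem2-/-5XFAD (SD, n = 6) and 8.14 ± 0.44 in 5XFAD (SD, n = 5).

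Csf2rb2, the IL-3 beta chain, followed the same arrays. It read 6.69, 7.21, 6.98 and 7.32 in WT and 7.08, 7.33, 8.16, 7.25 and 6.98 in 5XFAD, so 5XFAD 3 was again highest. The difference was 0.31 ± 0.19 (adjusted p = 0.32; 95% interval -0.09 to 0.71) and was 0.11 without 5XFAD 3. Neither beta-chain gene passed in any of the 5 comparisons between groups or in the interaction, and in Trem2-/- against WT they differed by 0.00 and -0.04, with intervals that reached from -0.46 to 0.41.

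**Figure D3:**
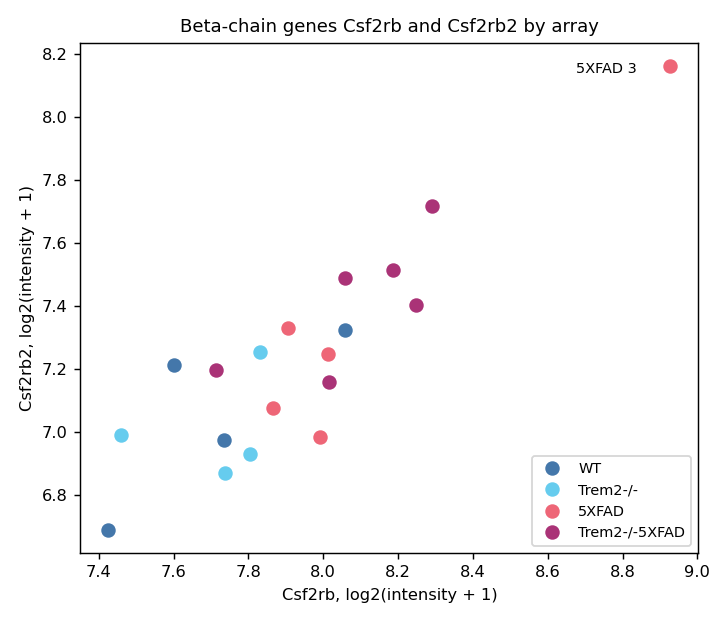
Csf2rb (x axis) against Csf2rb2 (y axis) in the 19 assigned arrays, both as log2(intensity + 1), coloured by genotype. The values follow each other from 7.43 and 6.69 in WT 1 to 8.93 and 8.16 in 5XFAD 3.

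Csf2rb and Csf2rb2 lie near each other on chromosome 15 and are close copies, so their probe sets may report each other's transcripts and the levels of the separate genes are uncertain. Over the 19 arrays each was the gene most like the other among those tested (Pearson r = 0.89; 0.85 after the group means were removed). The neutrophil list mean was also higher in 5XFAD 3, at 4.69 against 3.92 to 4.14 in the other 5XFAD arrays. Only 4 of its 13 genes were above the 40th percentile there, within the 3 to 5 of the 5XFAD group. S100a8 and S100a9 read 8.99 and 9.46 in 5XFAD 3, against at most 7.14 and 7.29 in the other 5XFAD arrays. In Trem2-/-5XFAD 1 the neutrophil mean (5.80), Csf2rb (8.29) and Csf2rb2 (7.72) were each the highest of the group. In Trem2-/-5XFAD 6 the neutrophil mean (5.12) and Csf2rb (8.25) were the next highest. Csf2rb2 was 7.41 there, below the 7.49 and 7.51 of Trem2-/-5XFAD 3 and 4. Trem2-/- 1 had the highest neutrophil mean of its group (5.65). Csf2rb was 7.80 there beside 7.46 to 7.83 in the other 3 arrays, and Csf2rb2 6.93 beside 6.87 to 7.25. With the neutrophil list mean as a covariate the difference between 5XFAD and WT was 0.39 for Csf2rb (limma, adjusted p = 0.17) and 0.27 for Csf2rb2 (adjusted p = 0.40).

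Csf3r, the G-CSF receptor, was above the 40th percentile in all 19 arrays and passed in no comparison. Its means were 9.59 ± 0.10 in Trem2-/- (SD, n = 4), 9.68 ± 0.11 in WT (SD, n = 4), 9.73 ± 0.13 in Trem2-/-5XFAD (SD, n = 6) and 9.82 ± 0.12 in 5XFAD (SD, n = 5). The difference between 5XFAD and WT was 0.14 ± 0.10 (limma, adjusted p = 0.42), with a 95% interval of -0.07 to 0.34. Neighbouring groups overlapped. Csf3r also marks neutrophils, and the neutrophil list mean was highest in Trem2-/- 1 (5.65) and Trem2-/-5XFAD 1 (5.80) against 3.75 to 5.12 elsewhere. Csf3r was 9.67 and 9.82 in these arrays, beside 9.46 to 9.66 and 9.49 to 9.83 in the other arrays of the same groups. In these arrays S100a8 read 9.96 and 11.11 and S100a9 10.58 and 11.22. In 5XFAD 3, which had the highest neutrophil mean of its group (4.69), Csf3r was 9.61, against 9.83 to 9.92 in the other 5XFAD arrays. Of the 13 neutrophil genes 9 passed the filter, while Ly6g, Ltf, Mmp8 and Cxcr2 did not. The part of neutrophils in the Csf3r level was not tested.

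Counted over the axis, 3 of the 6 tested genes passed in 5XFAD against WT (Csf1 and Csf2ra higher, Csf1r lower), where 15% of all tested genes passed. Csf1 and Csf2ra, 2 genes, passed in Trem2-/-5XFAD against 5XFAD, against a background of 7.68%. In Trem2-/- against WT it was Csf1 alone, against 0.613%. Csf1 and Csf2ra passed in Trem2-/-5XFAD against Trem2-/- (background 2.18%) and against WT (5.22%), and none passed the interaction (2.6%; 2 of 6 had an unadjusted limma p under 0.05, Csf1 and Csf1r). Comparisons that share a group share its arrays and are not independent of each other. The median log2 difference of the 6 genes was 0.37 in 5XFAD against WT and -0.07 in Trem2-/-5XFAD against 5XFAD, beside -0.02 and 0.04 over all tested genes.

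The genes whose log2 values followed each member most closely over the 19 assigned arrays were listed as a description, since arrays of a genotype move together and share their processing. For Csf1 they were Lpl (lipoprotein lipase, Pearson r = 0.98), Mif (a macrophage cytokine, 0.97), Cst7 (a cathepsin inhibitor, 0.97), Fam20c (a secretory-pathway kinase, 0.97) and Clec7a (the beta-glucan receptor Dectin-1, 0.97). After group means were removed, r was 0.67 for Cst7 and 0.08 to 0.27 for the others, so most of the likeness lay between genotypes. For Csf1r they were Mtus1 (0.95), the lysosomal protease gene Lgmn (0.94), the microglial membrane protein gene Tmem119 (0.93), the adhesion receptor gene Adgrg1 (0.93) and the ganglioside synthase gene St3gal5 (0.93). These kept r of 0.53 to 0.78 inside the groups. For Csf2ra they were Ptchd1 (0.94), A430093F15Rik (0.92), the survival gene Bcl2 (0.91), the proteoglycan gene Sdc3 (0.91) and Apbb2 (0.91). Between members, Csf1 and Csf1r had r = -0.82 over the arrays and -0.04 inside the groups, and Csf1 and Csf2ra 0.83 and -0.50.

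Relatives of the CSF family were mostly at low signal. Of 14 listed cytokines and receptors, 4 passed the filter: Il3ra, Flt3, Flt3l and Kitl. Il3ra, the alpha chain that pairs IL-3 with the beta chains, was 6.09 ± 0.12 in WT (SD, n = 4), 6.0 ± 0.26 in Trem2-/- (SD, n = 4), 7.20 ± 0.48 in 5XFAD (SD, n = 5) and 6.24 ± 0.25 in Trem2-/-5XFAD (SD, n = 6). It rose in 5XFAD against WT by 1.11 ± 0.19 (limma, adjusted p = 3.4e-04) and was 0.96 ± 0.17 lower in Trem2-/-5XFAD than in 5XFAD (adjusted p = 0.0011). Kitl, the ligand of the receptor tyrosine kinase Kit, was lower in Trem2-/-5XFAD than in Trem2-/- by 0.66 ± 0.17 (adjusted p = 0.039). Flt3 and its ligand gene Flt3l passed in no comparison.

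Of 34 listed genes of CSF1R signalling 29 were tested, and 3 were higher and 6 lower in 5XFAD than in WT, where 15% of all tested genes passed, with a list median of -0.01 beside -0.02 over all tested genes. The Src-family kinase genes Fgr and Fyn rose by 1.98 ± 0.22 (limma, adjusted p = 1.4e-06) and 1.35 ± 0.21 (adjusted p = 8.4e-05), and Ets2, a transcription factor downstream of Ras, by 0.82 ± 0.19. Pik3r5, a regulatory PI3-kinase subunit, fell by 0.63 ± 0.12, the lipid phosphatase gene Inpp5d by 0.49 ± 0.11 and the kinase gene Syk by 0.38 ± 0.10. Tyrobp, the adaptor shared with TREM2, did not pass (0.23 ± 0.08, adjusted p = 0.065).

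Loss of Trem2 in 5XFAD mice came with 4 of these 29 genes higher and 3 lower, against 7.68% of all tested genes that passed. Fyn was lower by 1.46 ± 0.19 (limma, adjusted p = 2.0e-05) and Fgr by 1.38 ± 0.20 (adjusted p = 8.0e-05), while the PI3-kinase genes Pik3cg and Pik3r5 were higher by 0.39 ± 0.08 and 0.48 ± 0.10. Fyn stood at 5.02 in WT, 4.96 in Trem2-/-, 6.37 in 5XFAD and 4.91 in Trem2-/-5XFAD. In the interaction, where 2.6% of all tested genes passed, 1 was higher and 3 lower: Fyn (-1.40 ± 0.29, adjusted p = 0.0085), Fgr (-1.30 ± 0.30, adjusted p = 0.023), Ets2 (-1.06 ± 0.27, adjusted p = 0.036) and, higher, Pik3cg (0.55 ± 0.13, adjusted p = 0.020). None of the 29 passed in Trem2-/- against WT by limma (0.613% of all tested genes), where 4 had an unadjusted p under 0.05. In Trem2-/-5XFAD against Trem2-/-, where 2.18% of all tested genes passed, 1 of the 29 did. It was the phosphatase gene Ptpn6 (0.39 ± 0.09, limma, adjusted p = 0.021).

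Transcription factors of macrophage development, several of which bind the Csf1r locus, numbered 14, of which 12 were tested. In 5XFAD against WT, with 15% of all tested genes called, 4 fell and 1 rose: Maf by 1.10 ± 0.13 (limma, adjusted p = 2.9e-06), Irf4 by 0.74 ± 0.15, Fli1 by 0.44 ± 0.10 and Ets1 by 0.45 ± 0.12, and Ets2, which is also on the preceding list, rose. In Trem2-/-5XFAD against 5XFAD (7.68% of all tested genes) 3 were higher, Irf4 by 0.61 ± 0.14, Maf by 0.58 ± 0.12 and Fli1 by 0.30 ± 0.09, and Ets2 was lower. Spi1, which encodes PU.1, the factor that drives Csf1r in macrophages, did not pass in 5XFAD against WT (-0.19 ± 0.12, adjusted p = 0.32), nor did Runx1 (0.03 ± 0.12) or Irf8 (0.07 ± 0.14). In the interaction (2.6% of all tested genes) Maf was higher (0.68 ± 0.18, limma, adjusted p = 0.047) and Ets2 lower, as given for the preceding list. Cebpb was lower in Trem2-/-5XFAD than in Trem2-/- by 0.59 ± 0.13 (limma, adjusted p = 0.018), where 2.18% of all tested genes passed. Border macrophage and microglial markers were lowest in 5XFAD, as given above, and their part in these differences was not tested.

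Of 16 tested genes of JAK-STAT signalling, the pathway of the beta-chain receptors and of CSF3R, 4 rose and 1 fell in 5XFAD against WT, beside 15% of all tested genes called. Socs2, a feedback inhibitor, rose by 1.09 ± 0.22 (limma, adjusted p = 0.0016), the receptor-bound kinase gene Jak2 by 0.58 ± 0.13, the cytokine gene Osm by 0.74 ± 0.19 and Stat3 by 0.53 ± 0.14, while Socs3 fell by 0.57 ± 0.18. In Trem2-/-5XFAD against 5XFAD, where 7.68% of all tested genes passed, Socs2 was lower by 0.91 ± 0.20 (limma, adjusted p = 0.0061). Osm was lower by 0.60 ± 0.17 (limma, adjusted p = 0.029), and no gene of the list was higher. Stat3 was the gene of this list that passed in Trem2-/- against WT, where 0.613% of all tested genes passed. It was at 9.67 ± 0.13 (SD, n = 4) against 8.88 ± 0.36 (SD, n = 4), a difference of 0.79 ± 0.15 (limma, adjusted p = 0.013). This call was not tried under the alternative settings, where 11 to 271 genes were called in this comparison. None of the 16 passed in the interaction or in Trem2-/-5XFAD against Trem2-/- by limma, where 4 and 1 had an unadjusted p under 0.05. Of all tested genes 2.6% and 2.18% passed there.

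**Figure D4:**
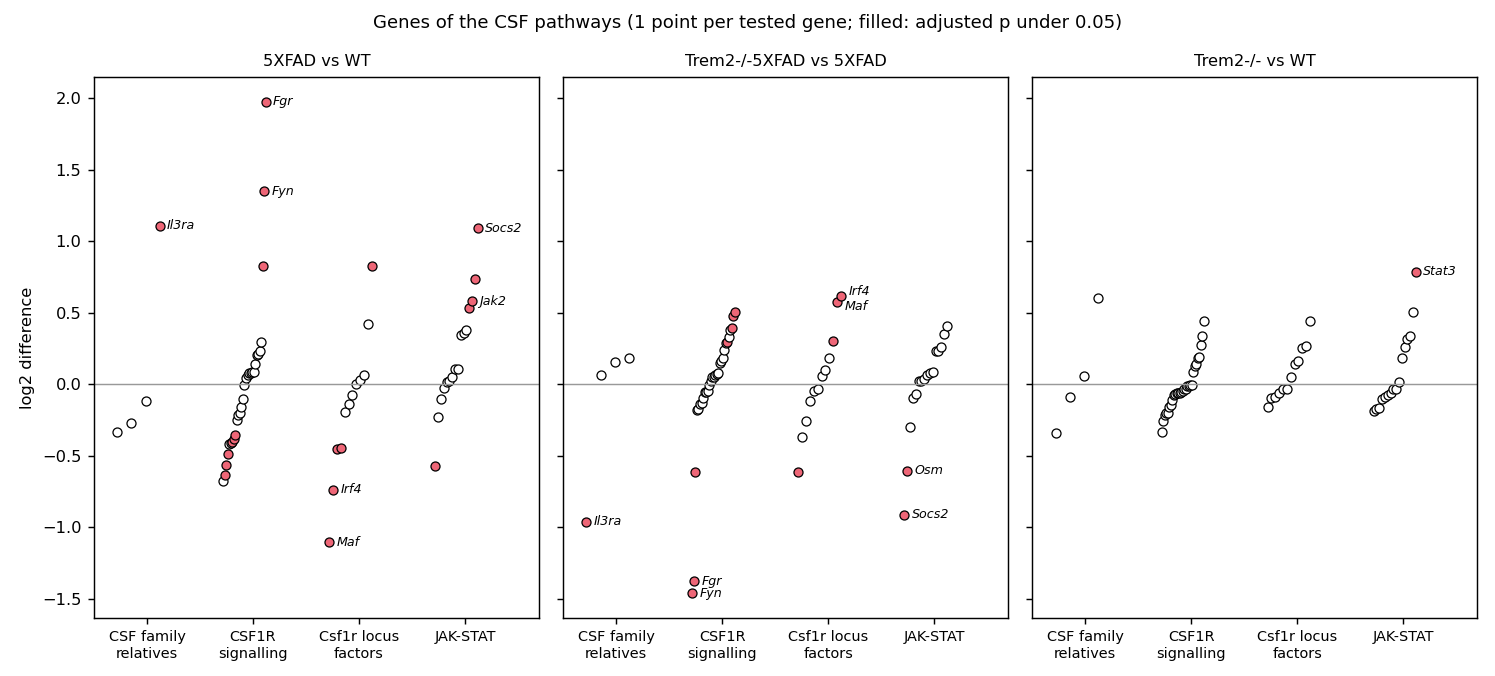
Log2 differences (y axis) of the tested genes on 4 lists around the CSF receptors (x axis) in 3 comparisons, with 1 point per gene, filled where the adjusted p is under 0.05. In 5XFAD against WT the points reach from -1.10 (Maf) to 1.98 (Fgr), and in Trem2-/- against WT only Stat3 is filled.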

How the data were processed

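RNA of sorted microglia was measured on 20 arrays. The authors deposited intensity values on a linear scale for 24679 probe sets, whose column medians lay between 25.7 and 28.6; no label states the background correction, normalization or summarisation. Probe sets with 1 annotated gene numbered 21354, those with several 1275 and those with none 2050; 21277 matched the reference gene table. The probe set with the highest mean stood for each of 19751 genes.

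Values were taken as log2(intensity + 1) from the deposited intensities. Genes above the array's 40th percentile in at least 4 of 19 assigned arrays entered 1 linear model of the 4 groups (limma 3.58.1, R 4.3.3), with Benjamini-Hochberg adjustment over 12728 genes and a threshold of 0.05. On simulated data with 200 changed genes in 5XFAD against WT, over 12728 genes, 0.92 of those changed by 1 log2 unit and 0.99 of those changed by 2 were recovered. The number of arrays limits the precision; no depth applies.

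Alternatives were another pseudocount, filters, normalizations, gene summaries, placements of the conflicting array, only the groups compared, the replicate number as a block, neutrophil, Xist, astrocyte and border macrophage terms, a variance prior, and each array left out. The astrocyte and border macrophage terms and the comparison of Trem2-/-5XFAD with WT were chosen after seeing the data. Over all groups the replicate numbers did not pair the arrays, as given below. WT and 5XFAD arrays of like number correlated at 0.09 to 0.17. Some of other number did so at a like level: WT 1 with 5XFAD 2 (0.11), WT 2 with 5XFAD 1 (0.13) and WT 3 with 5XFAD 5 (0.11). The alternatives were followed for the members and for the counts of genes called, not for single genes of the other lists. The members and gene lists were chosen with earlier results of these data known. Genes named are the members, the 5 genes most like each, and the 4 smallest p-values of each list per comparison; other list genes named were chosen after their values were seen.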

Additional observations from a re-analysis of the deposited data

Results flagged for a closer look

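Csf2rb, the common beta chain, read 8.93 in 5XFAD 3, where the other 4 5XFAD arrays ran from 7.87 to 8.01. The gap to the nearest array was 0.861 of the group's range, above Dixon's critical value of 0.71 for 5 samples. This was the only such gap among 28 checks of 7 genes in 4 groups, and chance gives about 1 in 20. Csf2rb2 was also highest in that array, at 8.16, with a gap of 0.707 of the range. The neutrophil marker mean of the array was 4.69, above the 3.92 to 4.14 of the other 5XFAD arrays. Of the 13 neutrophil genes 4 were above the 40th percentile there, within the 3 to 5 of the group. The part of neutrophil signal in the value of this array was not tested.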

How the results depend on the processing

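Of the 36 values of the 6 tested genes, 10 passed and none of these changed direction under 16 other settings or when any of 19 arrays was left out. Csf1 passed throughout in 5XFAD against WT and in all 3 comparisons of Trem2-/-5XFAD. The causes of the changes below were not tested.

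In 5XFAD against WT the genes called fell from 1909 to 500 with astrocyte and 1248 with border macrophage markers, and the members to 1 with astrocyte markers. In Trem2-/-5XFAD against 5XFAD the members called fell from 2 to 1 with the replicate block, the neutrophil, Xist, astrocyte or border macrophage term and without WT 1, WT 2, 5XFAD 1 and 5XFAD 2, and genes from 977 to 579 without these arrays, 192 with astrocyte and 345 with border macrophage markers; leaving out single arrays gave 1 to 2 members. In Trem2-/- against WT the 78 genes called became 26 with the conflicting array placed by title, 11 with only these groups, 38 with the replicate block, 27 with neutrophil, 36 with astrocyte and 25 with border macrophage markers, 271 without the 4 arrays and 30 to 159 with single arrays left out; the members became 0 with only these groups or the conflicting array placed by genotype. In Trem2-/-5XFAD against Trem2-/- the 278 genes became 183 with the block, 160 with Xist, 121 with astrocyte and 156 with border macrophage markers and 158 to 308 with single arrays left out; 1 member was called without the filter, with median centring and with the Xist, astrocyte or border term, and 1 to 2 with arrays left out. In Trem2-/-5XFAD against WT the 664 genes became 437 with the block, 331 with neutrophil and 251 with Xist terms and 349 to 686 with arrays left out; 1 member was called without the filter, with median centring, only these groups, the neutrophil, Xist or astrocyte term and without the 4 arrays, and 1 to 2 with arrays left out. In the interaction 211 genes were called with astrocyte markers against 331, and 1 member, Csf1, with a pseudocount of 16, the stricter filter, the conflicting array placed by title, the other variance prior or border macrophage markers, and 0 to 1 with arrays left out.

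Direction changed in 49 values of differences that did not pass, at adjusted p of 0.62 or more (limma). For Csf2rb2 in Trem2-/-5XFAD against 5XFAD these were -0.050 with neutrophil markers, -0.0060 with Xist, -0.051 without the 4 arrays and -0.0078 with border markers. In Trem2-/- against WT they were 0.013 (second quantile normalization) and 0.0052 (astrocyte) for Csf1r, 0.034 (astrocyte) and 0.22 (border) for Csf2ra, 0.0026 for Csf3r (conflicting array by genotype), and for Csf2rb -0.018 (quantile), -0.049 (by genotype), -0.16 (neutrophil), -0.19 (without the 4 arrays), -0.053 (astrocyte) and -0.061 (border). In the interaction they were 0.0065 for Csf2rb (quantile) and -0.046 (median centring) and -0.090 (by genotype) for Csf3r, which also had -0.027 (by title) and -0.034 (without the 4 arrays) in Trem2-/-5XFAD against WT. With single arrays left out the ranges were -0.12 to 0.14 for Csf2rb and -0.040 to 0.25 for Csf2rb2 in Trem2-/-5XFAD against 5XFAD. In Trem2-/- against WT they were -0.067 to 0.015 for Csf1r, -0.18 to 0.067 for Csf2ra, -0.091 to 0.12 for Csf2rb and -0.16 to 0.051 for Csf2rb2. In the interaction they were -0.18 to 0.14 for Csf2rb, -0.0012 to 0.29 for Csf2rb2 and -0.050 to 0.056 for Csf3r, whose range in Trem2-/-5XFAD against WT was -0.0042 to 0.10.

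Same-numbered arrays of different groups correlated at -0.10 to 0.17 (25 pairs, 5 over 0.1), and 5 of 18 arrays correlated best with their own number, so the numbers were not taken as pairs; with the block, 1786, 753, 38, 183, 234 and 437 genes were called in the 6 comparisons.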

Other observations

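The array titled WT and labelled Trem2-/- had a Trem2 level of 11.08. Its Csf1 level was 7.88, Csf1r 11.99, Il34 3.34, Csf2ra 7.31, Csf2rb 7.45 and Csf2rb2 6.96. Csf3r read 10.06 there, above the 9.46 to 9.92 of the 19 assigned arrays.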
